A study of Bos indicus with 8 samples.

Results

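The 67 cytosolic ribosomal protein genes with a probe on the array were compared between cumulus cells cultured with follicle-stimulating hormone (FSH) and control cumulus cells. Members were all probes whose gene symbol on the platform begins with RPL or RPS followed by a number, or with RPLP, without the ribosomal S6 kinases and the RPS19-binding protein. The brightest of a gene's probes stood for the gene, which gave 67 genes from 118 probes, among 15229 genes with a symbol. The large subunit held 43 of them, the stalk proteins RPLP0, RPLP1 and RPLP2 included, and the small subunit held 24.

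Bovine cumulus-oocyte complexes from slaughterhouse ovaries (follicles of 3 to 6 mm, organism given as Bos indicus) were cultured for 6 h. The FSH pools received recombinant human FSH at 0.5 µg/ml, and the control pools received none. All pools, the controls included, were kept in adenosine (3 mM), oestradiol (1 µg/ml) and 10% fetal bovine serum, and the sources used here do not give the animals' age. The number per pool is labelled 10 without a unit. The 4 FSH pools and 4 control pools were paired by replicate number, each pair on 2 arrays, with FSH in Cy5 on one slide and in Cy3 on the other. The labels call the 4 replicates biological. Because every array of a slide had the same dye orientation, slide and dye cannot be told apart.

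Cumulus cells are the somatic cells around the oocyte, and FSH drives their growth and differentiation through its receptor and cyclic AMP. Each cytosolic ribosome joins a large subunit, which forms the peptide bond, with a small subunit, which reads the mRNA, and the cell needs the proteins of both in nearly equal numbers. Their mRNAs share a pyrimidine tract at the 5′ end, the TOP motif, through which the mTOR kinase controls how strongly they are translated.

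The mean linear spot signal of the 67 probes ran from 82.6 for RPL3L to 31512.8 for RPL12, and 66 of 67 exceeded the negative-control limit on all 8 arrays in both channels, against 54.9% of the 12328 genes tested. The exception was RPL3L, the striated-muscle paralog of RPL3, which exceeded it on 7 arrays in the FSH channel and on 5 in the control channel. Of 14 cumulus and granulosa markers 12 were above the limit on all arrays, and the marker FOXL2 was too dim to test. Of 15 oocyte markers, 1 was above it on all arrays and channels. The control channel of replicate 3 had raised limits (192.1 in Cy3 and 82.2 in Cy5), and 46.3% and 33.9% of the probes exceeded them there. The FSH channel of replicate 1 in Cy3 had a like share (42.5% above a limit of 142.1), while all other channels had 68.8% to 86.4%. The 8 arrays carry 4 pairs of pools, each on 2 arrays, so the 4 replicates limit the precision.

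No ribosomal protein gene passed the test for FSH against control. With limma and Benjamini-Hochberg adjustment at 0.05 over all tested genes, 0 of 67 members and 0 of 12328 genes were called (0%), and the lowest adjusted p among members was 0.273, for RPL26. At an unadjusted p under 0.05 the fit listed 15 members with a mean above 0 (22.4%), where 5.91% of all tested genes were listed, and 1 member below 0 (1.49%), where 5.49% were. Mean ratios were above 0 for 48 members (71.6%, against 50.6% of all tested genes) and below 0 for 19. The median over members was 0.17 on the log2 scale of FSH over control, and 0.0023 over all tested genes. Both subunits had a similar middle, with 31 of 43 large-subunit genes above 0 and a median of 0.17, and 17 of 24 small-subunit genes above 0 and a median of 0.14. With arrays rebuilt from the scanner signals and centred only on their medians, 64 members lay above 0 (95.5%, against 71.6% in the deposited values), with a median of 0.56.

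The replicates differed widely. In replicate 3 the median over members was 0.80 and 64 members lay above 0, whereas the medians were 0.13 in replicate 1, 0.064 in replicate 2 and -0.15 in replicate 4, with 43, 37 and 27 members above 0. The members above 0 made up 64.2%, 55.2%, 95.5% and 40.3% in replicates 1 to 4, against 53.3%, 52.0%, 51.7% and 52.0% of all tested genes. Over all tested genes the replicate medians stayed between 0.012 and 0.015. Ratios over 0.5 were found in replicate 3 for 48 members (71.6%), against 8.71% of all tested genes. Replicate 3 was the highest of the 4 for 50 members (74.6%), against 29.7% of all tested genes. That order depended on the scaling: with arrays centred only on their medians, replicate 3 was highest for 18 members and replicate 2 for 46, and replicate 2 reached a median of 1.88 with FSH in Cy5, where replicate 3 had 0.92. Without replicate 3 the median over members was 0.010, with 34 members above 0 and 33 below (50.75% above, against 52.05% of all tested genes). Without replicate 4 it was 0.31. Without both it was 0.13, with 44 above 0 (65.7%, against 53.1%).

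Replicate 3 had the highest and replicate 4 the lowest member median on both slides. In replicate 3 the members' median reached 0.92 on the Cy5 slide (FSH in Cy5) and 0.59 on the Cy3 slide, and 55 members lay above 0 on both arrays (82.1%, against 33.9% of all tested genes). In replicate 4 the Cy5 slide gave -0.061 and the Cy3 slide -0.37, and 32 members lay below 0 on both (47.8%, against 32.3%). Replicates 1 and 2 had medians of 0.092 and 0.13 with FSH in Cy5, and of 0.091 and -0.020 with FSH in Cy3. The members' ratios on the 2 arrays of a replicate correlated with r = 0.58, 0.60, 0.40 and 0.71 in replicates 1 to 4. These values are across 67 genes, which are not independent, and the paired arrays carry the same RNA. Between replicates the same ratios correlated less, with r from -0.094 for replicates 3 and 4 to 0.47 for replicates 1 and 2.

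**Figure D1:**
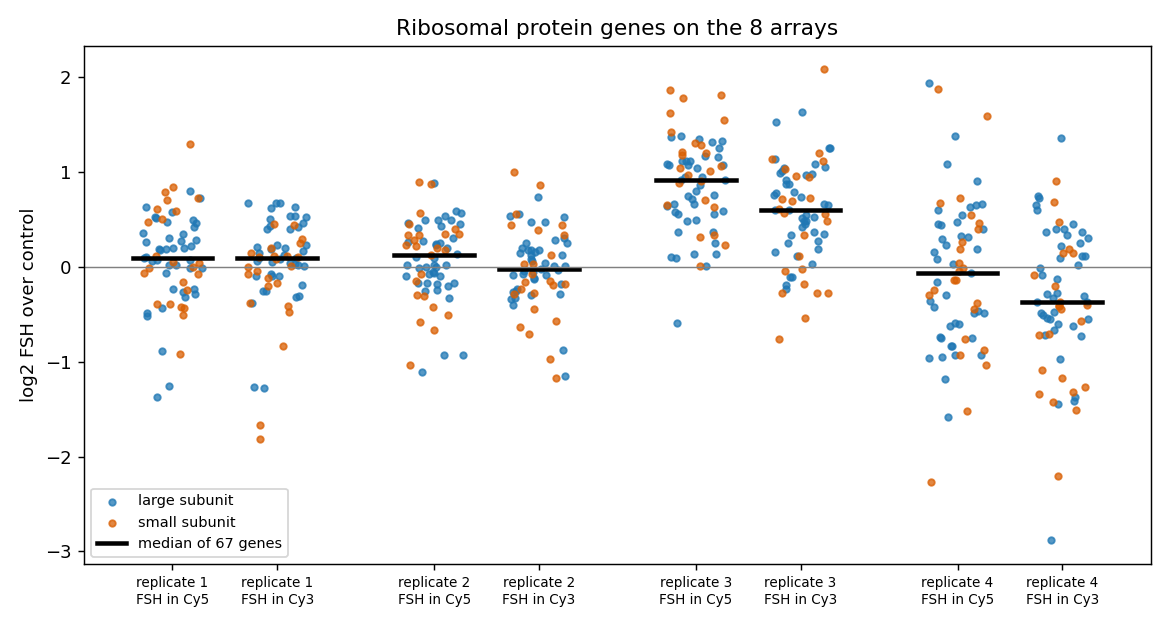
Log2 ratio of FSH over control of the 67 ribosomal protein genes on each of the 8 arrays, 1 point per gene, with large-subunit genes in blue, small-subunit genes in orange and the median as a bar. On both arrays of replicate 3 most genes lie above 0 (medians 0.92 and 0.59), and on both arrays of replicate 4 the medians lie below 0 (-0.061 and -0.37).

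The ratio cannot show which pool moved, so log2 levels of the single channels were rebuilt from the scanner signals of the same arrays, with a normalization other than that of the deposited ratios. Control pool 3 held the lowest of the 8 levels for 54 of 67 members (80.6%), against 21.4% of all tested genes. This was so for 37 of 43 large-subunit and 17 of 24 small-subunit genes. Relative to each gene's mean over the 8 pools, the median over members was 0.13, 0.10, 0.15 and -0.10 in FSH pools 1 to 4, and 0.13, 0.11, -0.54 and 0.087 in control pools 1 to 4. In these rebuilt levels control pool 3 thus stood apart from all other pools of either group. Pool levels were not made with arrays centred only on their medians, the scaling that changed the order of the replicates. Its difference from the mean of the other 3 control pools had a median of -0.62 over members, and 62 members lay below that mean (92.5%, against 51.1% of all tested genes). FSH pool 3 exceeded the other FSH pools by a median of 0.12, with 41 of 67 members above. Over all tested genes that median was 0.0024, with 6258 of 12328 above.

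**Figure D2:**
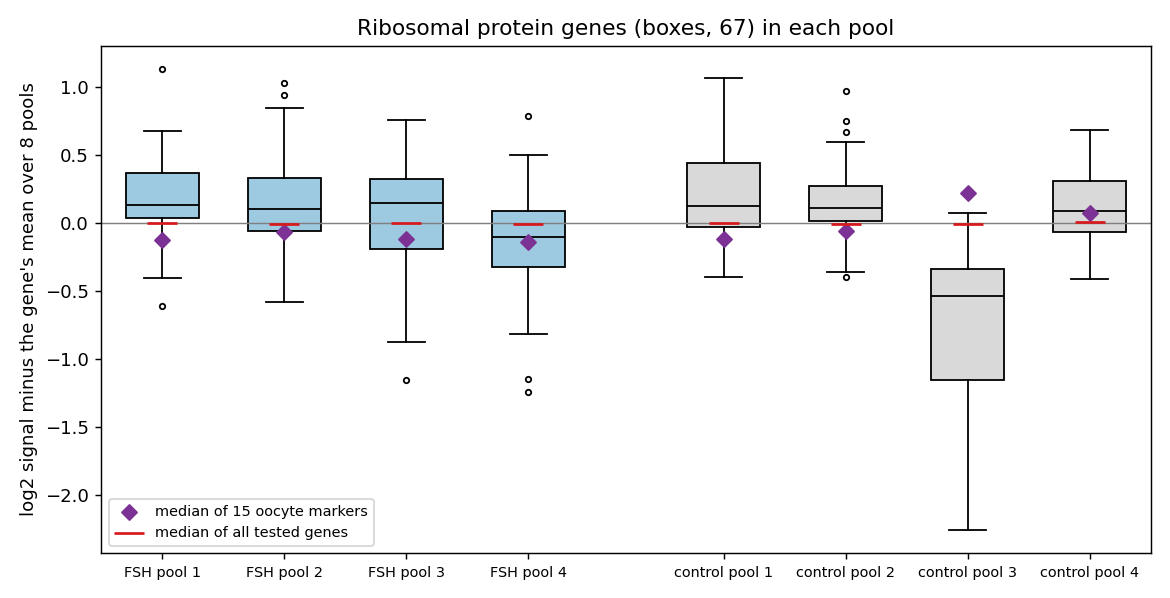
Log2 signal of the 67 ribosomal protein genes in each of the 4 FSH pools (left) and 4 control pools (right), less each gene's mean over the 8 pools. Boxes span the interquartile range with the median as a line, whiskers reach 1.5 box lengths and circles lie beyond, red bars are medians of all tested genes and diamonds medians of 15 oocyte markers. Control pool 3 has the lowest member median (-0.54) and the highest oocyte median (0.22).

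Of the marker lists, the oocyte markers set control pool 3 apart most clearly. The summed linear signal of the 15 oocyte markers was 1422 to 1457 in the FSH pools, against 1459, 1446, 2999 and 1851 in control pools 1 to 4. Of the 15, 11 were highest in control pool 3 (73.3%, against 20.9% of all tested genes). The summed signal of the cumulus markers was 74549 to 89943 in the FSH pools and 91245 to 99822 in the control pools, with 91245 in control pool 3. Relative to each gene's mean over the pools, the 13 tested cumulus markers had medians of 0.054, 0.15, -0.34 and -0.48 in FSH pools 1 to 4, against 0.20, 0.17, -0.041 and 0.17 in control pools 1 to 4. Control pool 3 was highest for 2 of these markers and lowest for 2 (15.4% each, against 20.9% and 21.4% of all tested genes). Markers of theca, stroma and endothelium summed to 3738 to 6829 in the FSH pools and to 4429 to 7500 in the control pools, with 2 of 10 tested genes above the limit on all arrays and the lowest control sum in pool 3. Over the 10 tested genes alone, the sums were 4609 and 3655 in FSH pools 3 and 4, against 4348 in control pool 3. Immune markers summed to 871.0 to 1642 in the FSH pools and to 909.0 to 1956 in the control pools, highest in control pool 3, with 1 of 5 tested genes above the limit throughout. Over the 5 tested genes alone, FSH pools 3 and 4 summed to 1176 and 1461, against 1781 and 1318 in control pools 3 and 4. Red blood cell markers stayed at 277.7 to 319.2 in the FSH pools and 292.9 to 325.1 in the control pools, with 0 genes above it throughout. Whether oocyte RNA or the raised limits of that pool have a part in the ribosomal protein values was not tested. In pooled cells, fewer cells of a type and less RNA per cell cannot be told apart.

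The members fell into more than 1 pattern over the pools. For 22 genes (32.8%, against 19% of all tested genes) the 3 lowest levels were those of FSH pools 3 and 4 and control pool 3, a grouping noticed after the values were seen. They included 14 large-subunit and 8 small-subunit genes, so both subunits held about the same share (32.6% and 33.3%). RPS19, a small-subunit protein mutated in Diamond-Blackfan anaemia, had log2 levels of 11.93, 11.64, 9.64 and 9.55 in FSH pools 1 to 4, against 11.86, 11.77, 8.54 and 11.43 in control pools 1 to 4. The same 3 pools were low for RPLP1, an acidic stalk protein, at 13.14, 12.98, 11.89 and 11.72 in FSH pools and 13.35, 12.85, 10.79 and 12.98 in control pools. RPL4, whose long loop lines the exit tunnel of the nascent peptide, had 14.65, 14.84, 13.54 and 13.01 in FSH pools and 14.60, 14.43, 13.35 and 14.84 in control pools. All 3 genes thus had low levels on both sides of replicate 3, and in replicate 4 on the FSH side only. The median ratio of the 22 genes was -0.086, 0.15, 0.96 and -0.75 in replicates 1 to 4, against 0.26, 0.012, 0.67 and 0.073 for the other 45. Ratios and levels come from the same spots, so this restates the grouping.

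In 5 members all FSH pools lay above all control pools (7.46%, against 2.02% of all tested genes), and all 5 belong to the large subunit. They were RPL26, RPL26L1, RPL10A, RPL23 and RPL7. In the deposited ratios RPL23 lay below 0 in replicate 2 (-0.095), while the others lay above 0 in every replicate. RPL26, which sits near the tunnel exit and is known to bind p53 mRNA, had 13.91, 13.89, 14.36 and 14.20 in FSH pools and 13.59, 13.70, 13.40 and 13.59 in control pools. No member had all FSH pools below all control pools (0%, against 2.08%).

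RPL26 also led the ratios. It stood at 0.65, 0.39, 0.99 and 0.92 in replicates 1 to 4, a mean of 0.74 ± 0.28 (SD, n = 4, limma adjusted p = 0.273). Its paralog RPL26L1 had 0.26, 0.29, 0.87 and 0.29, a mean of 0.43 ± 0.30 (adjusted p = 0.337). RPL10A, the protein of the mobile L1 stalk at the exit site for transfer RNA, had the tightest values of the leading genes, at 0.40, 0.34, 0.65 and 0.62 (mean 0.50 ± 0.15, adjusted p = 0.299). All 3 genes lay above 0 in every replicate. In a limma fit on the 8 single arrays with the replicate block, 3 members were called higher, RPL26 (adjusted p = 0.0132), RPL21 (adjusted p = 0.0468) and RPL10A (adjusted p = 0.0480), where 0.762% of all tested genes were called higher. That fit counts the paired arrays of a replicate as separate values, which the fit on 4 replicate values does not.

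Other named large-subunit genes had means over 0.3. RPL21 had 0.13, 0.44, 0.72 and 1.37 (mean 0.67 ± 0.53), highest in replicate 4 rather than replicate 3, but this rested on 1 of its 4 probes. The next brightest RPL21 probe gave 0.048, 0.058, 0.95 and -0.93 (mean 0.029), and all 3 other probes were highest in replicate 3. RPL32 had 0.14, 0.20, 1.26 and 0.46 (mean 0.51 ± 0.51), with most of its mean from replicate 3. RPL37, a zinc-binding protein, had 0.37, -0.26, 1.17 and 0.65 (mean 0.48 ± 0.59). Replicate 3 was also the highest for RPL30, RPL36A, RPL38 and RPL9. Their means were 0.43 ± 0.33 for RPL30, 0.45 ± 0.38 for RPL36A, 0.40 ± 0.55 for RPL38, which is known from mouse embryos for its part in translating Hox mRNAs, and 0.30 ± 0.19 for RPL9. RPL27 averaged 0.35 ± 0.25, with a replicate 2 value of -0.0091. None of these genes passed the adjusted test, whose p lay between 0.337 and 0.517 for them.

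At the other end of the large subunit, RPL8, a protein close to the peptidyl transferase centre, was below 0 in 3 replicates and above it in the other. Its ratios were -1.32, -1.13, 1.09 and -0.83 (mean -0.55 ± 1.11, adjusted p = 0.629). Its levels were 11.83, 11.71, 12.13 and 11.88 in FSH pools, against 13.21, 12.85, 11.10 and 12.75 in control pools, so that control pool 3 lay below the FSH pools while the other control pools lay above them. RPL7A had -1.26, -0.28, 0.85 and -0.50 (mean -0.30 ± 0.87). RPL4 had -0.12, 0.37, 0.31 and -2.23 (mean -0.42 ± 1.23), so its mean rested on replicate 4. The paralogs RPL7L1, which works in subunit assembly, and RPL22L1 averaged -0.21 ± 0.66 and -0.20 ± 0.56. RPL22L1 was also 1 of 3 members below 0 in replicate 3 (-0.35), together with RPS4Y1 (-0.087) and RPS2 (-0.031).

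RPL5 and RPL11, which bind 5S ribosomal RNA and can hold back the p53 ligase MDM2, averaged -0.015 ± 0.59 and -0.021 ± 0.80. RPL13A, known in human monocytes for silencing inflammatory mRNAs after release from the ribosome, averaged -0.19 ± 0.49, and RPL23A, a docking site of the signal recognition particle at the tunnel exit, 0.063 ± 0.58. In the stalk, which recruits the elongation factors, RPLP0 averaged -0.0014 ± 0.14, RPLP1 -0.0028 ± 0.95 and RPLP2 0.11 ± 0.61. Means near 0 thus came with narrow replicate values for the chosen RPLP0 probe and with wide ones for RPLP1. The replicates of RPLP1 ran from -1.15 in replicate 4 to 1.08 in replicate 3. The 12 probes of RPLP0 spread more, from -0.97 to 0.19 in replicate 4, where the chosen probe had 0.0025. RPLP2 reached 1.02 in replicate 3, with -0.21, -0.080 and -0.27 in replicates 1, 2 and 4.

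**Figure D3:**
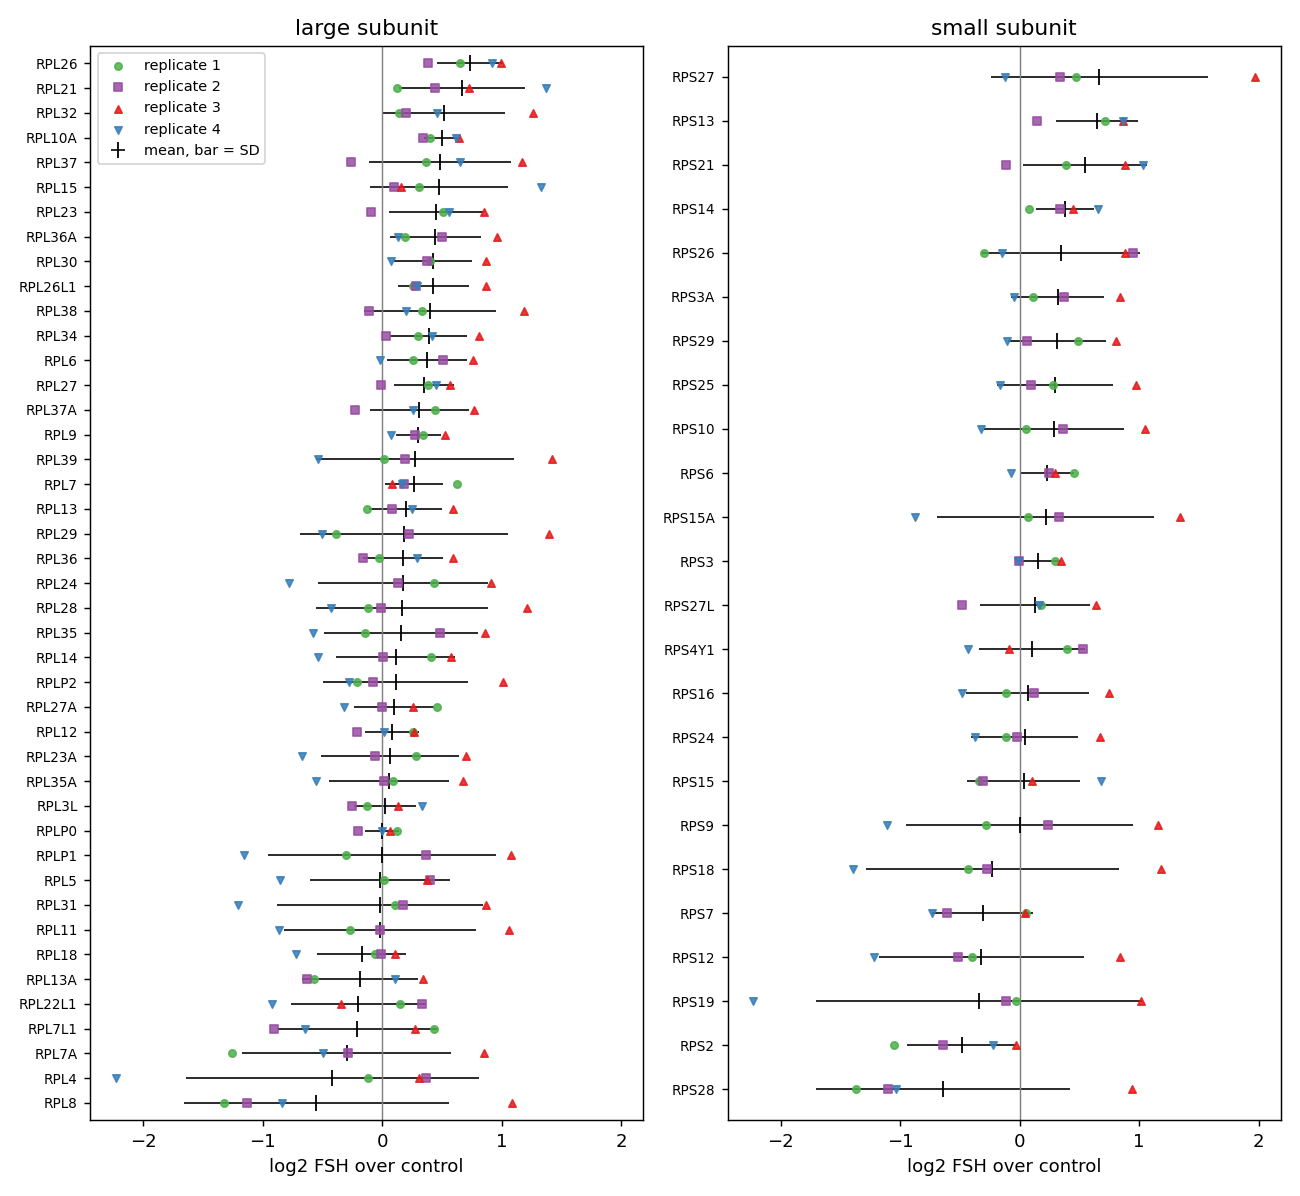
Log2 ratio of FSH over control in each replicate (coloured markers) for the 43 large-subunit genes (left) and 24 small-subunit genes (right), with the mean as a tick and a bar of 1 SD on each side (n = 4), sorted by mean. In these deposited values replicate 3 is the rightmost marker for 50 of the 67 genes (18 with arrays centred only on their medians), and the replicate 4 markers of RPL4 and RPS19 lie at -2.23.

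In the small subunit, RPS27, RPS13 and RPS21 had the largest means. RPS27, a zinc-finger protein, had 0.47, 0.34, 1.97 and -0.12 (mean 0.67 ± 0.91), with the highest replicate 3 value of all members. RPS13 had 0.72, 0.15, 0.87 and 0.87 (mean 0.65 ± 0.34, adjusted p = 0.299), above 0 in 4 of 4. RPS21 had 0.38, -0.11, 0.88 and 1.03 (mean 0.55 ± 0.52). Its dimmer probe gave 0.35, -0.15, 0.89 and 0.12 (mean 0.30), so the high replicate 4 value rested on the brighter probe. RPS13 was called higher, along with RPL26, when the 8 arrays were taken singly with the replicate block and a dye term (limma adjusted p = 0.0483), a fit that called 0.576% of all tested genes higher. RPS14, whose loss marks the 5q deletion syndrome in humans, had 0.078, 0.34, 0.45 and 0.65 (mean 0.38 ± 0.24), a value above 0 on all 8 arrays. RPS26, another Diamond-Blackfan gene, split by replicate, with 0.95 and 0.88 in replicates 2 and 3 but -0.29 and -0.15 in replicates 1 and 4 (mean 0.35 ± 0.66).

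RPS28, which lies at the mRNA exit of the small subunit, was the most negative member, with -1.37, -1.10, 0.94 and -1.04 (mean -0.64 ± 1.06, adjusted p = 0.562). Its levels were 13.86, 13.92, 14.85 and 14.00 in FSH pools, against 15.02, 15.06, 13.92 and 15.09 in control pools. As for RPL8, FSH pools 1, 2 and 4 lay below control pools 1, 2 and 4. Control pool 3 lay at the level of those FSH pools, while FSH pool 3 was nearer to the other control pools. Without replicate 3 RPS28 fell by 1.17 (SD 0.18, n = 3, limma adjusted p = 0.0388), as 1 of 19 genes called in that fit (0.146% of all tested genes were called lower). That fit leaves out the only RPS28 ratio above 0, so the narrow spread follows from the removal. The 2 slides also differed for RPS28, by 0.52 (limma adjusted p = 0.0451). RPL8 had -1.10 in the fit without replicate 3 and missed the threshold (limma adjusted p = 0.0764). RPS28 and RPL8 therefore took the opposite sign to most members in replicates 1 and 2.

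RPS2, near the mRNA entry channel, was the only member below 0 in all 4 replicates (1.49%, against 9.07% of all tested genes). It had -1.05, -0.64, -0.031 and -0.22 (mean -0.49 ± 0.45, adjusted p = 0.398). This rested on the brightest of its 3 probes. The others were above 0 in replicate 3 (0.42 and 0.20), with means of -0.23 and -0.24. RPS12 had -0.40, -0.51, 0.84 and -1.22 (mean -0.32 ± 0.86). RPS19 had -0.027, -0.11, 1.01 and -2.23 (mean -0.34 ± 1.36), the widest spread of all members. RPS7, which can also bind MDM2, averaged -0.31 ± 0.42.

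Of the small-subunit genes with means nearer 0, RPS6 is the substrate of the S6 kinases and had 0.45, 0.25, 0.30 and -0.075 (mean 0.23 ± 0.22). RPS3, which also takes part in DNA repair, averaged 0.16 ± 0.19. RPS25, needed by several viral internal ribosome entry sites, averaged 0.30 ± 0.48, RPS29 0.31 ± 0.41 and RPS15A 0.22 ± 0.91. RPS27L, a paralog of RPS27 that p53 induces in human cells, averaged 0.13 ± 0.46, where RPS27 itself averaged 0.67. RPS4Y1, as the annotation calls its probe after a gene that is Y-linked in humans, averaged 0.10 ± 0.44, and RPS16, whose tail reaches the peptidyl transfer RNA, 0.069 ± 0.52. In replicate 4 the small subunit had 5 genes above 0 and 19 below, and the large subunit 22 above and 21 below, a difference between subunits that was not tested. Of all tested genes, 52.0% lay above 0 in that replicate.

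Some members had the same sign throughout. Ratios were above 0 in 4 of 4 replicates for 13 members (19.4%, against 11.5% of all tested genes) and on 8 of 8 arrays for 8 members (11.9%, against 3.59%). The 8 were RPL26, RPL21, RPL10A, RPL34, RPL36A, RPS14, RPL32 and RPL7. RPL7 was unlike the rest, with its highest ratio in replicate 1 (0.62) and 0.18, 0.081 and 0.17 in replicates 2 to 4. This rested on the brighter of its 2 probes, as the dimmer gave 0.20, 0.41, -0.50 and 0.12 (mean 0.058).

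The dye orientations, which coincide with the slides, differed for more members than the FSH comparison called. The ratio with FSH in Cy5 less the ratio with FSH in Cy3 passed the limma test at an adjusted p under 0.05 for 16 of 67 members (23.9%), against 8.06% of all tested genes. It was higher with FSH in Cy5 for 12 (17.9%, against 3.6%) and lower for 4 (5.97%, against 4.46%). The small subunit held 10 of the 16, out of 24 genes, and the large subunit 6 out of 43. The count depended on the scaling, for the members as for all genes: with loess on the scanner signals 50 members passed (26.6% of all tested genes did), and with arrays centred only on their medians 0 did (0%).

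RPS16 differed most, by 1.73 ± 0.30 (SD, n = 4, limma adjusted p = 0.000457). With FSH in Cy5 it had 0.61, 0.87, 1.78 and 0.47 in replicates 1 to 4, against -0.84, -0.64, -0.28 and -1.42 with FSH in Cy3, so the sign of its ratio went with the slide in every replicate. RPS21 differed by 1.34 ± 0.50, RPS2 by 1.32 ± 0.51 and RPS13 by 1.24 ± 0.30. With FSH in Cy5 the mean was 0.17 for RPS2 and 1.27 for RPS13, against -1.14 for RPS2 and 0.030 for RPS13 with FSH in Cy3. The values above for RPS2, RPS13 and RPS21 thus average slides that differ by more than their means. RPS3 differed by 0.89 ± 0.39 and RPS6 by 0.74 ± 0.31. RPLP0, often used as a reference gene, averaged 0.32 on the slide with FSH in Cy5 and -0.32 on the other, a difference of 0.63 ± 0.31 (adjusted p = 0.0240) that its mean near 0 does not show. RPL35 (-0.62 ± 0.13), RPL13A (-0.56 ± 0.060), RPS27L (-0.54 ± 0.12) and RPL22L1 (-0.41 ± 0.16) had the lower ratio with FSH in Cy5. RPL26 (0.26 ± 0.077), RPL21 (0.032 ± 0.11) and RPL10A (-0.15 ± 0.32) did not pass this test.

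Among the members, spot brightness went along with the slide difference. At a limit chosen after the values were seen, 27 members had a mean linear signal over 20000, and their median difference was 0.45, with 22 above 0 and 10 called. The other 40 had a median of -0.035, with 16 above 0 and 6 called. Over all tested genes, not split by brightness, the median was 0.0083, with 51.55% above 0 and 8.06% called. In replicate 3 the dimmer group had the higher median ratio, 0.87, with 0.57 in the brighter group. The part of brightness in the slide difference was not tested.

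**Figure D4:**
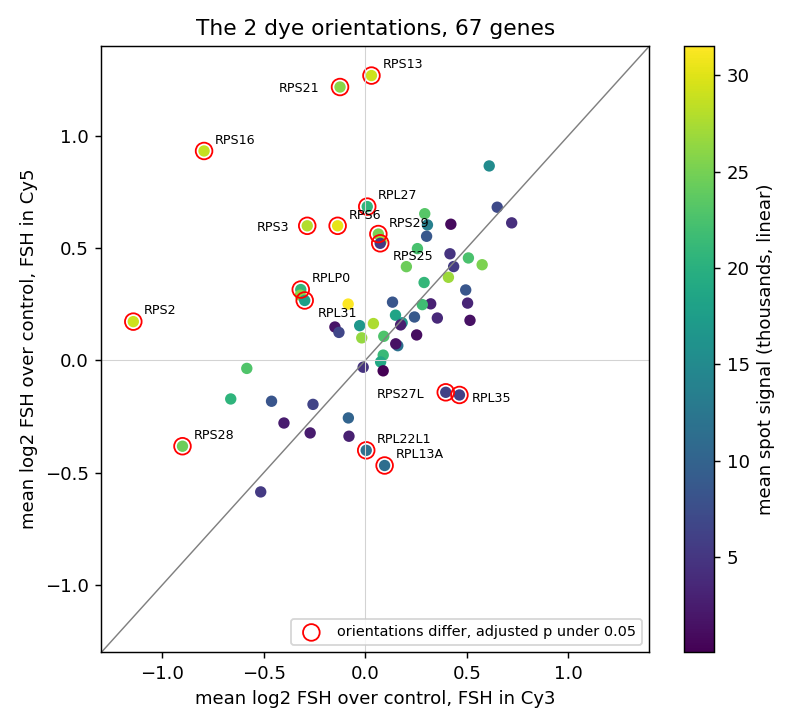
Mean log2 FSH over control with FSH in Cy5 (vertical) against the mean with FSH in Cy3 (horizontal) for the 67 genes, coloured by mean linear spot signal, with the line of equality in grey. Red rings mark the 16 genes whose orientations differ, led by RPS16, RPS21, RPS2 and RPS13, all above the line.

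Of 27 genes with several probes, 20 had all probes on the same side of 0 in the mean. In replicate 3, 111 of the 118 probes lay above 0 and 73 above 0.5. RPLP0, with 12 probes, had 5 above and 7 below 0 (-0.31 to 0.14), and the 2 probes of RPS7 gave -0.31 and 0.34. Ribosomal protein genes have many near-identical processed copies in mammalian genomes, and paralogs such as RPL26 and RPL26L1 are alike in sequence, so a probe may bind more than its own transcript.

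Related genes were read from the same fit, in which 0 genes of any list were called. The 74 tested mitochondrial ribosomal protein genes, which serve the separate ribosome of the organelle, had 36 means above 0 and 38 below, a median of -0.0035 and a replicate 3 median of 0.18. They ran from 0.38 ± 0.16 for MRPL47 to -0.79 ± 0.57 for MRPL27. FAU, which encodes a small-subunit protein fused to a ubiquitin-like one, and GNB2L1, which encodes the scaffold protein RACK1 of the small subunit, averaged 0.34 ± 0.65 and 0.21 ± 0.51, with a median of 0.79 in replicate 3. RPSA, a further small-subunit gene outside the symbol rule, was looked at after its values were seen and averaged -0.080 ± 0.28, with -0.28 in replicate 3.

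Genes that act with the ribosome had small medians. Of 8 elongation factors, 7 lay above 0 with a median of 0.045 and a replicate 3 median of 0.15. EEF1D had the largest mean (0.12 ± 0.31) and EEF1A1 the lowest (-0.29 ± 0.36). Of 12 other transcripts with a TOP tract, 8 lay above 0 with a median of 0.18, close to that of the members, but their replicate 3 median was -0.0024 and their replicate 2 median the highest (0.39). The splicing regulator gene HNRNPA1 led them (0.50 ± 0.23), and VIM, for the filament protein vimentin, was lowest (-0.41 ± 0.76). Of 58 nucleolar and ribosome biogenesis genes 25 lay above 0 (median -0.039), between 0.35 ± 0.14 for NOP56, of the box C/D particle, and -0.43 ± 0.29 for the kinase RIOK2. Of 14 genes of RNA polymerase I and its factors 8 lay above 0 (median 0.069), between 0.55 ± 0.53 for POLR1D and -0.25 ± 0.45 for TWISTNB, both polymerase subunits. Of 20 mTOR and S6 kinase genes 11 lay above 0 (median 0.0053), between 0.27 ± 0.44 for RICTOR, of mTOR complex 2, and -0.71 ± 0.41 for RPS6KA1, a kinase downstream of ERK.

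**Figure D5:**
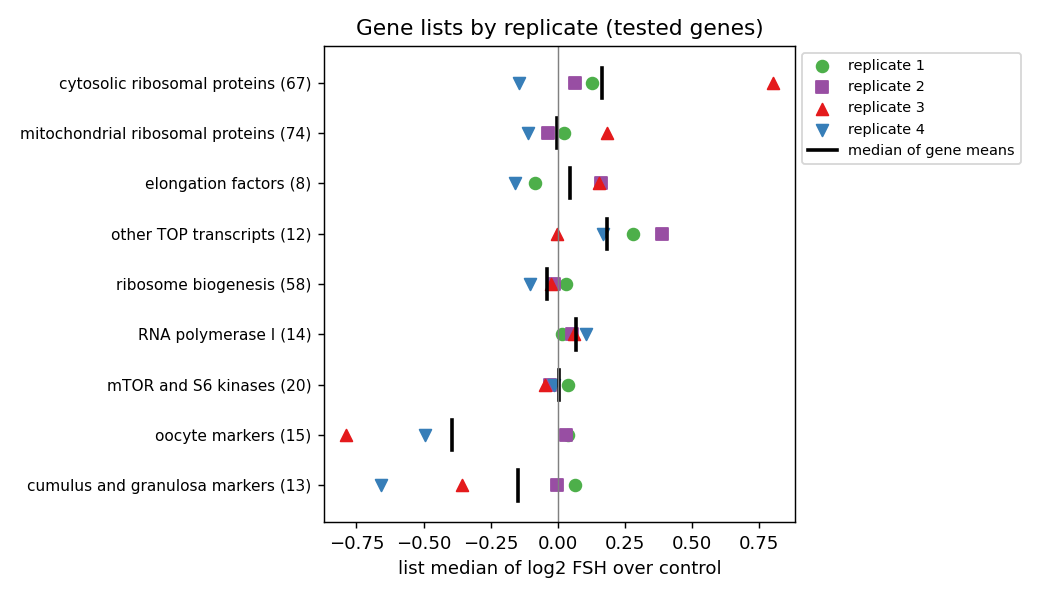
Median log2 ratio of FSH over control by replicate (markers) and median of the gene means (black bar) for the cytosolic ribosomal proteins, 6 lists of the translation machinery and its control, and 2 marker lists, with the number of tested genes in brackets. The replicate 3 median of the cytosolic ribosomal proteins (0.80) stands to the right of every other marker, and that of the oocyte markers (-0.79) to the left.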

How the data were processed

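The deposited scanner files hold spot intensity and local background per channel on a linear scale, per the file headers. The deposited series matrix holds the authors' normalized log2 ratio of FSH over control. It matched the authors' table of Cy5 over Cy3 after turning signs (largest gap 5.0e-06), and correlated with the scanner ratios with r from 0.454 to 0.768 across probes. Their background correction and normalization are not named in the sources used here. Cumulus RNA was amplified by T7 polymerase in 2 rounds and labelled without an enzyme, per the labels' protocols, and amplification can change the relation between transcripts.

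Probe symbols came from the platform annotation. Of the 67 members, 65 had an entry in RefSeq's gene table for NIAB-ARS_B.indTharparkar_mat_pri_1.0, the others being RPS4Y1 and RPS16. The dye orientations were averaged per replicate. Genes were tested (12328) where the probe's signal exceeded a limit (153 negative-control spots of its array and channel, mean plus 2 SD), averaged over a replicate, in at least 3 of 4 replicates of either group. In R 4.3.3, limma 3.58.1 (with statmod 1.5.0 for blocks) fitted an intercept to the 4 replicate values, and likewise to the orientation differences, with Benjamini-Hochberg adjustment over all tested genes. Levels of single channels used normexp (offset 50), loess and Aquantile. The intercept fit was tested on simulated data, and the fits with the replicate block were not. Members and lists were chosen with earlier results of these data known.

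Named members were the 5 highest and 5 lowest means of each subunit, the 10 lowest p, the 5 largest orientation differences and 28 genes fixed by name, of which 22 had a probe. Those without were RPL3, RPL10, RPL22, RPL36AL, RPL39L and RPS27A, which were not analysed here. Of the other lists, the highest and lowest means were named. RPL23, RPL34, RPL7, RPL35, RPL12, RPL3L, FAU, GNB2L1 and RPSA were singled out outside the rule. Deviations of same-numbered pools correlated with r = 0.70, 0.69, 0.59 and 0.11 for numbers 1 to 4, but these pools share arrays. Other pairs were as close, with r = 0.72 for FSH pool 4 and control pool 3, 0.58 for FSH pool 1 and control pool 2, and 0.54 for FSH pool 2 and control pool 1. The pairing thus rests on the shared arrays, over which each ratio is formed. Promoters and sequences were not analysed here.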

Additional observations from a re-analysis of the deposited data

Results flagged for a closer look

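In 3 of 67 members 1 replicate lay far from the other 3 by Dixon's criterion, which chance meets in about 1 in 20 groups. All 3 were replicate 3, with log2 FSH over control of 0.87 for RPL26L1, 1.02 for RPLP2 and 0.94 for RPS28.

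In 16 members the 2 dye orientations gave different ratios by limma (adjusted p under 0.05). The ratio with FSH in Cy5 was the higher one by 1.73 for RPS16, 1.34 for RPS21, 1.32 for RPS2, 1.24 for RPS13, 0.89 for RPS3 and 0.74 for RPS6. The same held for RPL27 (0.68), RPLP0 (0.63), RPL31 (0.57), RPS28 (0.52), RPS29 (0.50) and RPS25 (0.45). It was the lower one for RPL35 (-0.62), RPL13A (-0.56), RPS27L (-0.54) and RPL22L1 (-0.41). Slide and dye cannot be told apart here.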

How the results depend on the processing

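With n = 4, no member passed the FSH comparison, and the count stayed at 0 except in these fits. Leaving out each replicate in turn gave 0 to 1 calls, the 1 being RPS28 without replicate 3, its only replicate above 0. Taking the 8 arrays singly with the replicate block gave 3 (correlation 0.444), and adding the dye term 2 (correlation 0.619), in fits that called 229 and 173 of all 12328 genes. Separate channels with no replicate block gave 0. The calls on RPL26, RPL21, RPL10A and RPS13 rest on the fits with the replicate block, which count the arrays singly. The member median kept its sign in every setting, at 0.010 to 0.31 with a replicate left out. It was 0.13 without replicates 3 and 4, 0.20 with FSH in Cy5 alone and 0.088 with FSH in Cy3 alone. Without replicate 3, however, the member median of 0.010 was close to that of all tested genes (0.0096). The large-subunit median turned to -0.016 in that setting. At an unadjusted p under 0.05 the number of members above 0 ran from 5 with loess on scanner signals to 30 with arrays centred on their medians. In that last setting the replicate medians over members were 0.54, 1.04, 0.76 and -0.021, so replicate 2 exceeded replicate 3, and the medians of all tested genes in replicates 1 and 2 were 0.14 and 0.22. Of 41 named members, 22 changed sign in at least 1 of 17 alternatives.

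Orientation differences were less stable. Against 16 calls, there were 7 to 12 with a replicate left out (8 without replicate 1, 9 without replicate 3, 7 without replicate 4), 50 were made with normexp and loess on scanner signals and 0 with arrays centred on their medians. Calls over all tested genes swung likewise, from 8.06% to between 2.56% and 4.32% with a replicate left out, 26.6% with loess and 0% with median centring. The cause was not tested. With no background correction but again with loess, an alternative chosen after seeing the data, control pool 3 was lowest for 53 members in place of 54. The promoter comparison was not run. The brightest spots reached 42362 on the linear scale, and only RPL3L was limited by signal over background.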
